A study of Glycine max with 6 samples.

Results

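The genes described here are a gene similar to the Arabidopsis 12-oxophytodienoate reductase OPR1 (Glyma14g39790) and a pair of lipoxygenase genes, similar to LOX2 (Glyma20g11610) and LOX5 (Glyma20g28290). They are 3 of the 66184 genes measured, each by 1 probe set, and were picked by identifier with their differences between drought-stressed and well-watered leaves on these same arrays known. Their differences between the treatments are therefore given as a description, with no test. All plants were soybean (Glycine max) of the cultivar Williams 82 in the R2 stage, which is full bloom, and the third trifoliate leaf counted from the shoot was profiled on Affymetrix Soybean Gene arrays. The 3 drought-stressed plants, numbered 11, 12 and 13, had received no water for 5 days, by when the soil held 5% moisture, and the 3 well-watered plants, numbered 1, 3 and 4, were watered throughout. The plants grew 3 to a pot, and it is not stated whether plants of a treatment shared one, so pot and treatment cannot be told apart and the spread between plants may be that within a pot.

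Jasmonates are oxygenated fatty acid hormones, known above all for defence against insects and wounding and for their part in leaf senescence and flower fertility. Lipoxygenases start the route by adding oxygen to polyunsaturated fatty acids. In Arabidopsis, LOX2 is a chloroplast enzyme of the class that feeds jasmonate synthesis, whereas LOX1 and LOX5 belong to the class that oxidises the fatty acid at its other site and gives different oxylipins. Allene oxide synthase and allene oxide cyclase then turn the jasmonate precursor into the cyclic compound 12-oxophytodienoic acid, which a reductase of the OPR family and rounds of beta-oxidation convert to jasmonic acid. OPR1 itself is in Arabidopsis a cytosolic reductase with little activity on the natural form of that compound, so it is a relative of the jasmonate enzyme rather than the enzyme itself. Soybean names below are those of the closest Arabidopsis protein in the study's annotation, and the function of the soybean proteins was not measured.

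Each value is a log2 expression from which the gene's own median over the 6 arrays has been taken. It shows how a gene differs between plants but not how strongly it is expressed, so levels of different genes are not compared and leaf marker genes could not be checked for presence. Where the groups do not overlap, the centring also makes the inner value of one group the mirror image of the inner value of the other, and for these genes that pair carries no separate information. Across the 66184 genes, which are no independent replicates, the centred values of arrays of one group correlated between 0.431 and 0.639, and the array medians lay between -0.11 and 0.13. In a whole leaf, fewer cells of a type and less RNA per cell cannot be told apart.

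Among the 3 genes, the OPR1-like gene Glyma14g39790 was higher in drought-stressed leaves, with almost no variation between plants. It stood at 0.94, 0.94 and 0.98 in drought-stressed plants 11, 12 and 13, against -1.04, -0.94 and -0.96 in well-watered plants 1, 3 and 4. The groups lay 1.88 apart at their closest values, while the 3 drought values spanned 0.040 and the 3 well-watered values 0.099. The means were 0.95 ± 0.02 in drought-stressed and -0.98 ± 0.05 in well-watered leaves (SD, n = 3 each). The log2 fold change was 1.93 ± 0.15 (SE of the fit, 95% interval from 1.59 to 2.27), which is 3.81-fold. An SE from the spread of this gene alone would have been 0.033, since the fit draws the variance of each gene towards that of the others. In this difference the gene held place 933 of the 66184 genes counted from the largest rise.

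The LOX2-like gene Glyma20g11610 was higher in drought-stressed leaves by a similar factor, with far more variation between plants. It stood at 0.65, 0.63 and 1.29 in drought-stressed plants 11, 12 and 13, against -0.63, -1.54 and -0.89 in well-watered plants 1, 3 and 4. Plant 13 was the highest of the drought-stressed plants and plant 3 the lowest of the well-watered ones, and the groups did not overlap, with 1.26 between their closest values. The means were 0.86 ± 0.38 in drought-stressed and -1.02 ± 0.47 in well-watered leaves (SD, n = 3 each). The log2 fold change was 1.88 ± 0.27 (SE, 95% interval from 1.29 to 2.47), or 3.68-fold, at place 993 from the largest rise. An SE from the spread of this gene alone would have been larger, 0.35.

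The LOX5-like gene Glyma20g28290 went the other way and was lower in drought-stressed leaves. It stood at -0.73, -0.70 and -1.82 in drought-stressed plants 11, 12 and 13, against 0.70, 1.16 and 1.31 in well-watered plants 1, 3 and 4. Plant 13 lay well below plants 11 and 12, and the groups were 1.40 apart at their closest values. The means were -1.08 ± 0.64 in drought-stressed and 1.06 ± 0.32 in well-watered leaves (SD, n = 3 each). The log2 fold change was -2.14 ± 0.30 (SE, 95% interval from -2.81 to -1.47), a level 4.41-fold lower in drought-stressed leaves, and the gene held place 422 counted from the largest fall. Here too an SE from the spread of the gene alone would have been larger, 0.41.

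**Figure D1:**
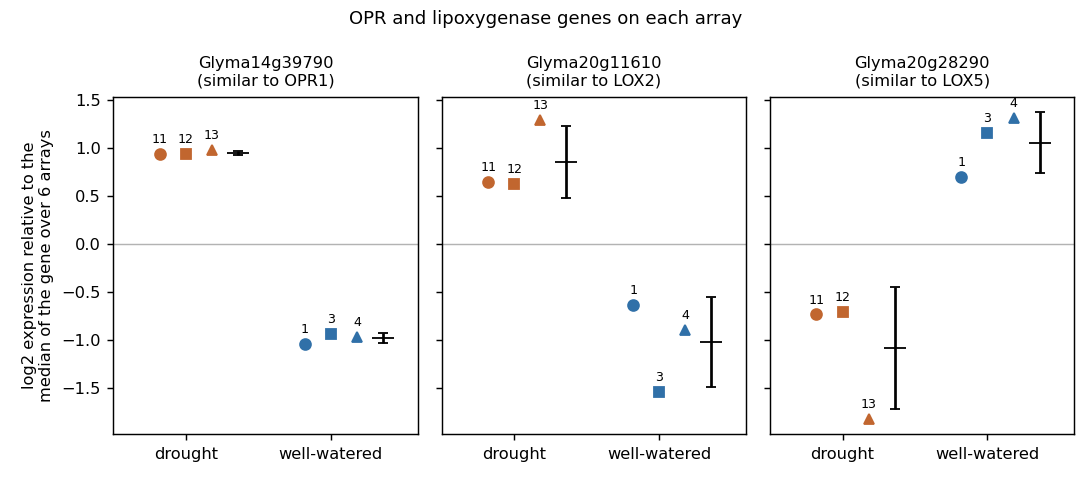
Log2 expression relative to the median of each gene over 6 arrays (vertical axis) on every array of drought-stressed and well-watered leaves, with plant numbers beside the points and the mean ± SD of the 3 plants as a black bar. The OPR1-like and LOX2-like genes are above 0 in all 3 drought-stressed plants and the LOX5-like gene is below 0 in them. Among the drought-stressed plants, plant 13 lies farthest from 0 for both lipoxygenase genes.

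A gene was called where limma gave an adjusted p (over all genes) under 0.05 and the groups differed at least 2-fold. By that rule the OPR1-like and LOX2-like genes were called higher and the LOX5-like gene lower in drought-stressed leaves. Over all genes 4.98% were called higher and 4.63% lower, 9.61% in either direction. The groups did not overlap in any of the 3 genes, as was so for 36.0% of all genes: 18.6% with the drought values above and 17.4% with them below. Since these values chose the genes, the calls are no test of them, and nothing is read from the calls or the counts. The call of the LOX5-like gene was not given by the methods' t-test, which takes each gene's spread alone.

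The 3 genes differed in how much plants of one treatment varied. The pooled SD within groups was 0.040 for the OPR1-like gene, and only 174 of the 66184 genes had a smaller one. It was 0.42 for the LOX2-like and 0.50 for the LOX5-like gene, at percentiles 91.1 and 96.2 of all genes, where the median gene had 0.24. Among the 6360 genes called in either direction the median SD was 0.275, and 11 of them varied less than the OPR1-like gene. For both lipoxygenase genes the largest deviation among the drought-stressed plants was that of plant 13, 0.43 above the group mean for the LOX2-like and 0.73 below it for the LOX5-like gene. Plant 13 was often the outermost of the drought-stressed plants: it was the highest in 55.1% of the 3295 genes called higher and the lowest in 43.6% of the 3065 genes called lower. Without plant 13 the log2 fold changes were 1.66 for the LOX2-like and -1.78 for the LOX5-like gene.

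**Figure D2:**
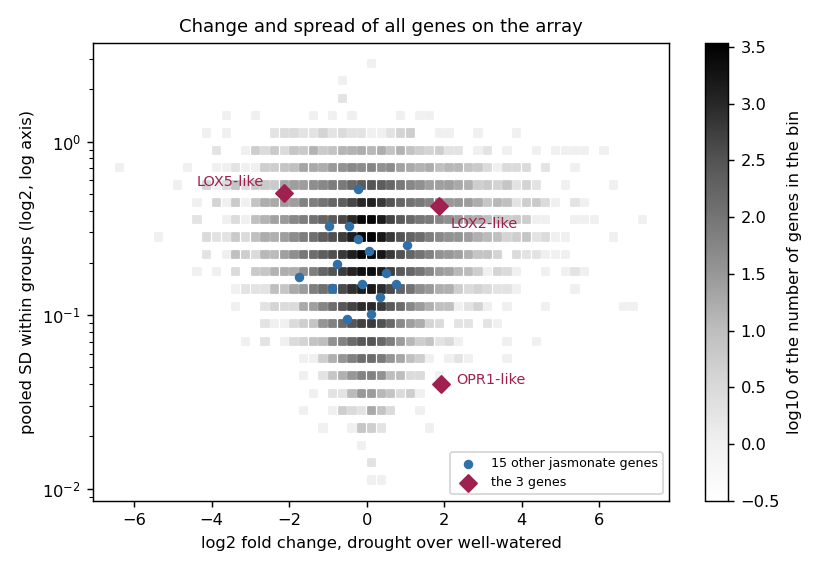
Log2 fold change of drought over well-watered leaves (horizontal axis) against the pooled SD within groups (vertical axis, log scale), with the number of genes per bin in grey for all 66184 genes, blue points for the 15 other jasmonate genes and diamonds for the 3 genes described. The OPR1-like gene lies near the lower edge of the cloud at an SD of 0.040, and the LOX2-like and LOX5-like genes lie in its upper part at 0.42 and 0.50.

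Among the 4 other lipoxygenase genes of the study's jasmonate list, 1 was called higher and none was called lower. Over all genes the shares were 4.98% and 4.63%. The study had drawn that list of 11 genes, the 3 genes among them, from leaves of the V6 stage of other plants, where they had changed at least 2-fold under drought, so it does not hold the whole family. The second LOX2-like gene, Glyma02g26160, rose in drought-stressed leaves. It stood at 0.30, 0.32 and 0.38 in plants 11, 12 and 13, against -0.30, -0.94 and -0.89 in well-watered plants 1, 3 and 4. The groups did not overlap and the spread was mainly among the well-watered plants, where plant 1 was the highest, as it was for Glyma20g11610. The log2 fold change of Glyma02g26160 was 1.05 ± 0.20 (SE, n = 3 each, limma, adjusted p = 0.0043), just past 2-fold. It was no longer past 2-fold without well-watered plant 3, at 0.93, or plant 4, at 0.96, and the methods' t-test gave an adjusted p of 0.0543.

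The LOX1-like genes, relatives of the same class as LOX5, were not called, beside 9.61% of all genes called in either direction. Glyma03g39730 stood between 0.23 and 0.49 in drought-stressed and between -0.56 and -0.23 in well-watered leaves, and its log2 fold change was 0.75 ± 0.17 (SE, n = 3 each, limma, adjusted p = 0.0111), which is under 2-fold. Glyma10g29490 had a log2 fold change of 0.50 ± 0.18 (limma, adjusted p = 0.0778), with a 95% interval from 0.10 to 0.89. In both the drought values lay above the well-watered values, as in 18.6% of all genes, on the opposite side to the LOX5-like gene. In Glyma10g29490 the closest values of the groups were only 0.15 apart. The putative lipoxygenase Glyma16g01070 had overlapping groups and a log2 fold change of -0.12 ± 0.17, with an interval from -0.50 to 0.26 that leaves out a change of 2-fold in either direction. Log2 fold changes were positive for 4 and negative for 2 of the 6 lipoxygenase genes of the list, and the LOX5-like gene was the lowest of them.

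The listed genes similar to an allene oxide synthase, an allene oxide cyclase and a hydroperoxide lyase, 1 of each, were not called. Other genes of these enzymes were not looked at, and of all genes 9.61% were called in either direction. Glyma07g21100, similar to allene oxide synthase, which commits the oxidised fatty acid to jasmonate, had a log2 fold change of -0.46 ± 0.23 (SE, n = 3 each, limma, adjusted p = 0.207). Its groups overlapped, with -0.45, 0.11 and -0.59 in drought-stressed plants 11, 12 and 13, against 0.44, -0.09 and 0.09 in well-watered plants 1, 3 and 4. Glyma12g31770, similar to the hydroperoxide lyase HPL1, which takes the same substrate into leaf volatiles, stood between -0.72 and -0.20 in drought-stressed and between 0.20 and 0.38 in well-watered leaves. Its log2 fold change was -0.75 ± 0.18 (limma, adjusted p = 0.0152), short of 2-fold. Glyma01g22160, similar to the allene oxide cyclase AOC4, had a log2 fold change of 0.33 ± 0.17 (limma, adjusted p = 0.208), with an interval from -0.03 to 0.70.

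Neither gene similar to JAR1 was called, beside 9.61% of all genes called in either direction. These JAR1-like genes, whose Arabidopsis relative joins jasmonic acid to isoleucine and so makes the active hormone, both had negative log2 fold changes that did not reach 2-fold. Glyma19g44310 stood at -0.20, -0.33 and -0.41 in drought-stressed plants 11, 12 and 13, against 1.10, 0.20 and 0.69 in well-watered plants 1, 3 and 4. The groups did not overlap, the well-watered plants were spread over 0.90, and the log2 fold change was -0.97 ± 0.23 (SE, n = 3 each, limma, adjusted p = 0.0126). Without well-watered plant 3 it was -1.20 and without drought-stressed plant 11 it was -1.03, and in both cases it was called lower. Glyma07g06370 had a log2 fold change of -0.52 ± 0.16 (limma, adjusted p = 0.0457).

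The study's annotation was at hand only in part and need not hold the rest of the pathway. The part at hand names 7 further jasmonate genes, all on chromosome 1. Of these, 1 was called lower and none higher, beside 4.63% and 4.98% of all genes. The call was that of Glyma01g12740, similar to MYC2, the basic helix-loop-helix factor that drives many jasmonate-responsive genes and also acts in abscisic acid responses in Arabidopsis. It stood at -0.74, -0.81 and -0.91 in drought-stressed plants 11, 12 and 13, against 0.74, 0.84 and 1.16 in well-watered plants 1, 3 and 4. The groups were clearly apart, and the gene fell, its log2 fold change being -1.74 ± 0.17 (SE, n = 3 each, limma, adjusted p = 9.75e-05), a level 3.33-fold lower in drought-stressed leaves. The second MYC2-like gene, Glyma01g02250, had a log2 fold change of -0.89 ± 0.17 (limma, adjusted p = 0.00419), under 2-fold, with no overlap between the groups. The other 4 of these 7 genes, after the allene oxide cyclase gene above, had overlapping groups and log2 fold changes between -0.22 and 0.11. They are similar to the acyl-CoA oxidases ACX4 and ACX5 of beta-oxidation (Glyma01g24420 at 0.06 ± 0.19 and Glyma01g41600 at -0.22 ± 0.31), to CYP94B3, which breaks down the active hormone (Glyma01g27470 at 0.11 ± 0.16), and to an acid phosphatase related to the soybean vegetative storage protein VSPA (Glyma01g00900 at -0.22 ± 0.21). For the ACX5-like gene the interval ran from -0.92 to 0.47, for the others it was narrower, and none of the 4 intervals reached 2-fold in either direction.

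Over the 15 jasmonate genes other than the 3 described, 1 was called higher and 1 lower, beside 4.98% and 4.63% of all genes. On the adjusted p alone, with no demand on the fold, 7 of the 15 passed, 2 with higher and 5 with lower values in drought-stressed leaves, beside 19.9% of all genes in either direction. Of these 7, 5 were among the 8 others of the study's list and 2 among the 7 of chromosome 1. The listed genes had been chosen for a change under drought in V6 leaves, so their share is not that of unselected jasmonate genes. The median log2 fold change was -0.29 over the 8 others of the study's list and -0.22 over the 7 of chromosome 1, against 0.02 over all genes.

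**Figure D3:**
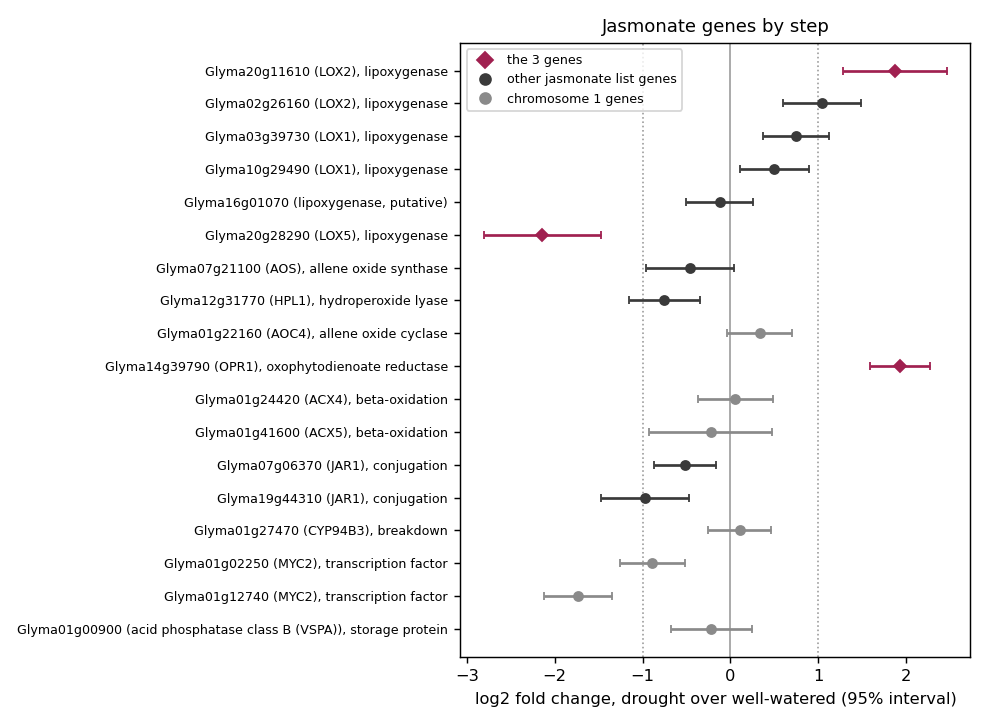
Log2 fold change of drought over well-watered leaves with its 95% interval (horizontal axis) for 18 jasmonate genes in the order of the pathway steps, with diamonds for the 3 genes described, dark points for the other 8 genes of the study's list and grey points for the 7 genes of chromosome 1. Dotted lines mark a 2-fold change, and apart from the diamonds only the second LOX2-like gene at 1.05 and a MYC2-like gene at -1.74 lie beyond them.

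The genes next to the 3 genes along the chromosome were looked at because plant lipoxygenases often lie in tandem and because the choice of the genes had not used their neighbours. Identifiers are numbered along the chromosome, and 5 genes on each side were taken, to be read beside the 4.98% of all genes called higher and the 4.63% called lower, 9.61% in either direction. Around the OPR1-like gene on chromosome 14, none of the 10 neighbours was called higher and 1 was called lower, and the median over them was -0.16 in log2 fold change, so that 1 of 10 stood close to the 9.61% of all genes. The lower one was Glyma14g39820, the third gene on, whose log2 fold change was -2.67 ± 0.17 (SE, n = 3 each, limma, adjusted p = 8.16e-06). The neighbours on either side of the OPR1-like gene had log2 fold changes of -0.05 ± 0.25 and -0.12 ± 0.20, and neither was called.

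Around the LOX2-like gene on chromosome 20, 1 of the 10 neighbours was called higher and none lower, and the median over them was -0.05 in log2 fold change, again 1 of 10 beside 9.61%. The call was that of the adjacent gene Glyma20g11620, which stood at 0.75, 0.26 and 0.86 in drought-stressed plants 11, 12 and 13, against -0.38, -0.50 and -0.26 in well-watered plants 1, 3 and 4. Its log2 fold change of 1.00 ± 0.20 (SE, limma, adjusted p = 0.00498) was just past 2-fold. Whether the gene was also called with another scaling or without 1 of the arrays was not looked at. Like the LOX2-like gene, it was highest in plant 13 and lowest in plant 3. The gene on the other side was not called, at -0.62 ± 0.23 on the log2 scale (SE, limma, adjusted p = 0.0869).

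Around the LOX5-like gene, also on chromosome 20, 4 of the 10 neighbours were called, 1 higher and 3 lower, beside 4.98% and 4.63% of all genes, and the median over the 10 was 0.15 in log2 fold change. The adjacent gene on one side, Glyma20g28280, rose, its log2 fold change being 2.46 ± 0.24 (SE, n = 3 each, limma, adjusted p = 7.46e-05), opposite to the LOX5-like gene. It stood at 1.39, 0.84 and 1.59 in drought-stressed plants 11, 12 and 13, against -1.31, -0.84 and -1.42 in well-watered plants 1, 3 and 4. On the other side the next 3 genes were all called lower, with log2 fold changes between -1.84 and -1.09. The lowest was Glyma20g28320, with -1.08, -0.63 and -1.14 in drought-stressed plants 11, 12 and 13, against 0.97, 0.63 and 1.07 in well-watered plants 1, 3 and 4. These neighbours are given by identifier only, since the study's annotation was at hand only in part, and the ones singled out were chosen after their values were seen.

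**Figure D4:**
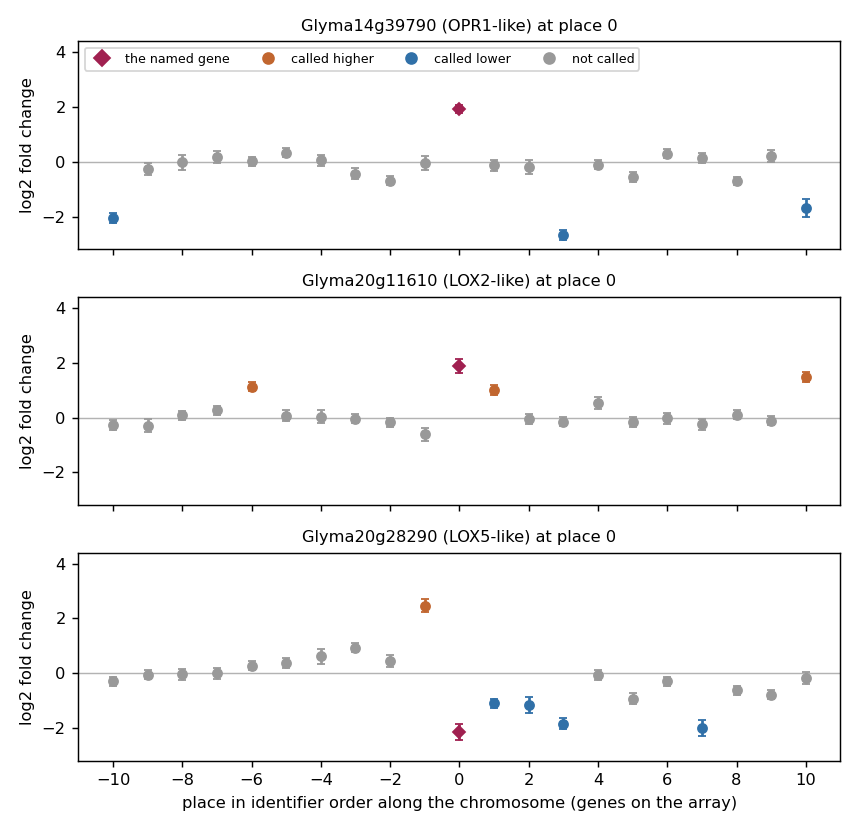
Log2 fold change of drought over well-watered leaves ± SE (vertical axis) for the 10 genes on each side in identifier order (horizontal axis, place along the chromosome) of the OPR1-like, LOX2-like and LOX5-like genes, which are the diamonds at place 0. Colour gives the call, and the LOX5-like gene at -2.14 is followed by 3 genes called lower and preceded by 1 called higher at 2.46, while most neighbours of the other genes lie near 0.

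Among the 116 hormone-related genes outside the study's jasmonate list, those with values most like the 3 genes were sought by the root mean square difference over the 6 arrays, as a description, since all share the same arrays and treatments. Over the whole array, 355 genes lay within 0.25 of the OPR1-like gene, 44 within 0.25 of the LOX2-like gene and 13 within 0.25 of the LOX5-like gene. Of the 116 genes, the closest to the OPR1-like gene was Glyma19g27260, at a difference of 0.251. It is a GRAM domain gene of the abscisic acid list, annotated as related to an abscisic acid-responsive protein. The next was Glyma07g25390, a putative dioxygenase of the ethylene list, at 0.29. The same GRAM domain gene was also the closest to the LOX2-like gene, at 0.39, though it was lowest in plant 13 among the drought-stressed plants, where the LOX2-like gene was highest. The next was Glyma10g00980, similar to the ethylene response factor ERF1, at 0.40. It stood at 0.35, 0.08 and 1.34 in drought-stressed plants 11, 12 and 13, against -0.08, -1.06 and -1.10 in well-watered plants 1, 3 and 4, with plant 13 far above the other drought-stressed plants. For the LOX5-like gene the closest of the 116 were Glyma02g37350, an oxygenase gene of the ethylene list, at 0.38, and Glyma19g40330, a universal stress protein gene of the same list, at 0.42. Glyma02g37350 stood at -0.59, -0.41 and -1.15 in drought-stressed plants 11, 12 and 13, against 0.41, 0.77 and 1.05 in well-watered plants 1, 3 and 4, the same order of plants as the LOX5-like gene. No other probe set had values identical to those of any of the 3 genes.

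**Figure D5:**
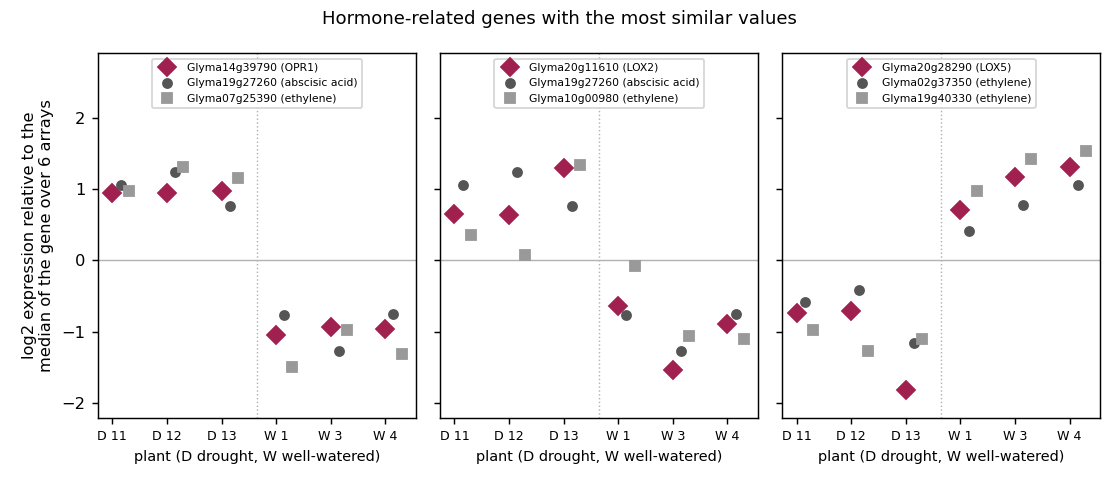
Log2 expression relative to the median of each gene over 6 arrays (vertical axis) on the arrays of the 3 drought-stressed plants and the 3 well-watered plants (horizontal axis, D and W with plant numbers), for each of the 3 genes as a diamond and the 2 hormone-related genes closest to it as a circle and a square. The OPR1-like gene is level within each treatment, while the LOX5-like gene and its closest gene are both lowest in plant 13 at -1.82 and -1.15.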

How the data were processed

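Total RNA from leaves of single plants was hybridised to 6 arrays. The authors used Expression Console (Affymetrix) to obtain gene summaries by RMA, left unnormalized, and then scaled the log2 data in GeneSpring to the upper quartile of each array. In the deposited log2 values each probe set also has a median of 0 over the arrays (largest absolute median 5e-07). A second deposited table holds the authors' own comparison (fold change, p-value, corrected p-value), which was not used. Only its gene identifiers were read. None of these identifiers was among the 59048 genes of the RefSeq table for Glycine_max_v4.0 (0 matched), so names are those of the study and no sequence is shown.

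Treatments were compared over all 66184 probe sets with limma 3.58.1 in R 4.3.3 (lmFit, eBayes, treatment as the only term) and Benjamini-Hochberg adjustment. These steps were tested on simulated data in which genes varied independently, which does not show how the adjustment fares where genes vary together. The SE and 95% intervals are those of the fit. With 3 arrays a group the precision is limited. Without absolute signals no filter on dim probe sets could be set.

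The genes and lists were chosen with earlier results of these data known. Named are the 3 genes, the other jasmonate genes, and per gene the 2 hormone-related genes with the smallest root mean square difference. Some neighbours along the chromosome are also named, chosen after their values were seen. Alternatives were another scaling (array medians subtracted, or quantiles equalised), the methods' t-test, arrays weighted by quality, calls on the adjusted p alone, leaving out each array, and 3 or 10 neighbours on each side.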

Additional observations from a re-analysis of the deposited data

How the results depend on the processing

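The log2 fold changes of the 3 genes kept their sign under every alternative run. Leaving out 1 array at a time gave values from 1.90 to 1.95 for the OPR1-like, from 1.62 to 2.07 for the LOX2-like and from -2.33 to -1.78 for the LOX5-like gene. With quantile normalization the OPR1-like gene was at 1.86, a shift larger than its own small SD. Over all genes the methods' t-test called 2319 higher and 2041 lower, and without the fold criterion 6589 were higher and 6583 lower. Leaving out 1 array gave from 3050 to 3523 higher and from 2861 to 3237 lower.

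Of the 15 other jasmonate genes, the number called higher was 1 as reported, 0 with the methods' t-test, 2 without the fold criterion and from 0 to 1 with 1 array left out, and the number called lower was 1 as reported, 2 with array weights, 5 without the fold criterion and from 1 to 2 with 1 array left out. Within the study's list the number called higher was likewise 0 with the methods' t-test, 2 without the fold criterion and from 0 to 1 with 1 array left out. The number called lower there was 1 with array weights, 3 without the fold criterion and from 0 to 1 with 1 array left out, while on chromosome 1 it was 2 without the fold criterion. Without the fold criterion fewer conditions apply. For the array weights and the t-test the cause was not tested. In all, 154 of 165 values of these genes stayed on their side of the threshold, 3 were no longer past it and 8 were newly past it. Some of the 8 passed only because the fold criterion was dropped. No value that was called changed sign. Signs did change in genes that were not called. Glyma01g24420 went from 0.06 to -0.07 without well-watered plant 4 and to -0.01 without drought-stressed plant 12. Glyma01g41600 went from -0.22 to 0.09 without drought-stressed plant 13. With 10 neighbours on each side, 3 of 20 genes were called higher and none lower around the LOX2-like gene. Around the OPR1-like gene none of 20 was called higher and 3 lower. Around the LOX5-like gene 1 of 20 was called higher and 4 lower. Of all genes 4.98% were called higher and 4.63% lower. No paired analysis was possible because the groups share no plant numbers. Array signal over background is not known from centred values.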
